A study of Homo sapiens with 3 samples.

Results

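The 39 naturally methylated A and C of human 28S ribosomal RNA were examined, out of 797 A and 1695 C in the molecule. They are a fixed list of known methylation sites, taken from the literature and not from these measurements, and the base letter and position of all 39 matched the deposited table. The list holds 20 adenosines and 15 cytidines methylated on the 2′-oxygen of the ribose, and 4 nucleotides methylated on the base (A1322, A4220, C3782 and C4447). Whether each site is methylated in these cells, and in what share of ribosomes, was not measured. Each site is named by its base and its position from the 5′ end of 28S rRNA, which spans 5070 nt in the table. The other 775 A and 1678 C are called unlisted below, since some may carry modifications that the list leaves out.

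The signal is the mutation rate of dimethyl sulfate probing, in units normalized by the authors. Dimethyl sulfate adds a methyl group to the Watson-Crick face of A (at N1) and C (at N3) where no base pair or ligand covers it, and reverse transcriptase misreads the adduct. HEK293 cells, a human embryonic kidney line that the growth protocol names as HEK293T/17, received 10 µM cycloheximide, 10 µM RiboBright or an equal volume of the solvent DMSO, each for 30 min. Cycloheximide blocks elongation from the E site of the large subunit. RiboBright is described in the labels as a probe. There was 1 library per treatment, so no difference between libraries has a replicate check, no test is given, and all values below describe these libraries.

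Ribose methylation of rRNA is laid down by the methyltransferase fibrillarin, which box C/D small nucleolar RNAs guide to each site by base pairing. The methyl group sits on the sugar and leaves the Watson-Crick face of the base free. Base methylation is made by stand-alone enzymes. In 28S rRNA, RRP8 (nucleomethylin) makes N1-methyladenosine at A1322, ZCCHC4 makes N6-methyladenosine at A4220, NSUN5 makes 5-methylcytidine at C3782, and NOP2 (NSUN1) makes 5-methylcytidine at C4447. Of these groups only the N1-methyl of A1322 sits on an atom that dimethyl sulfate itself would methylate, and reverse transcriptase can misread it without any probing.

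The sequences around the base-methylated sites, and around the highest and the lowest ribose-methylated A and C by rank in DMSO, are listed below. They are copied from the deposited table, 5′ to 3′, 21 nt each, with T in place of U. The capital marks the methylated nucleotide after which each line is named, and all other letters are lower case.

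A1322: acccgtcttgAaacacggacc
A4220: tcaaacggtaAcgcaggtgtc
C3782: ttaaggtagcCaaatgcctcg
C4447: tttgatccttCgatgtcggct
A4523: agggaacgtgAgctgggttta
A1524: taggacccgaAagatggtgaa
C1881: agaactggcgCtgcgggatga
C4536: tgggtttagaCcgtcgtgaga

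Other listed sites lie within some of these windows: A1326 in that of A1322, A3785 in that of C3782, C4456 in that of C4447, A1534 in that of A1524 and A1871 in that of C1881. The rRNA is transcribed from repeated genes, which RefSeq annotates on GRCh38.p14. These are RNA28SN1 (chromosome 21, 8441146 to 8446211), RNA28SN2 (chromosome 21, 8213888 to 8218941), RNA28SN3 (chromosome 21, 8396926 to 8401980), RNA28SN4 (assigned to chromosome 22) and RNA28SN5. RNA28SN5 has the table's length of 5070 nt and no assigned chromosome there. The measurements pool these copies.

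All 39 sites had a value in every library. Of the unlisted A and C, 73.3% were likewise measured throughout. By library, 88.9% of them had a value with DMSO, 90.7% with cycloheximide and 73.3% with RiboBright, so most gaps were in RiboBright. No site among the 39 was closer than 25 nt to an unmeasured A or C, whereas 34.7% of unlisted positions were. None of the 39 was listed at exactly 0, against 4.08%, 3.46% and 6.34% of the unlisted values in DMSO, cycloheximide and RiboBright, the order used throughout. The sites thus lie away from the stretches with missing values. The read depth behind each value is unknown.

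The base-methylated sites took both ends of the scale. A1322 had the highest signal of all A and C in each library, at 17.791 with DMSO, 18.729 with cycloheximide and 18.991 with RiboBright. That was 136, 135 and 142 times the median of unlisted A in the same order. No library without dimethyl sulfate was used here, so the misreading of the natural methyl group and the probing adduct cannot be told apart at this site. The peak was narrow: A1323, the next nucleotide, had 0.033, 0.044 and 0.

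A4220, the N6-methylated adenosine, was near the bottom of its base. Its signal was 0.047 with DMSO, 0.046 with cycloheximide and 0.029 with RiboBright. Its percentile, meaning the share of unlisted A in the same library with a lower signal and ties split evenly, was 7.29, 6.91 and 5.89. The median of the 5 unlisted A within 10 nt was 0.124, 0.136 and 0.114, above A4220 in every library. A4219, on its 5′ side, was also low, with 0.059, 0.068 and 0.050.

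The 5-methylcytidines differed from each other. C3782 had 0.045 with DMSO, 0.047 with cycloheximide and 0.017 with RiboBright, at percentiles 31.3, 29.5 and 13.0 among unlisted C. C4447 had 0.159, 0.123 and 0.187, at percentiles 71.4, 63.0 and 73.1. C4447 was thus above C3782 in each library. A3783, directly 3′ of C3782, had 0.316, 0.245 and 0.276, while A3784 after it had 0.022, 0.018 and 0.024.

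**Figure D1:**
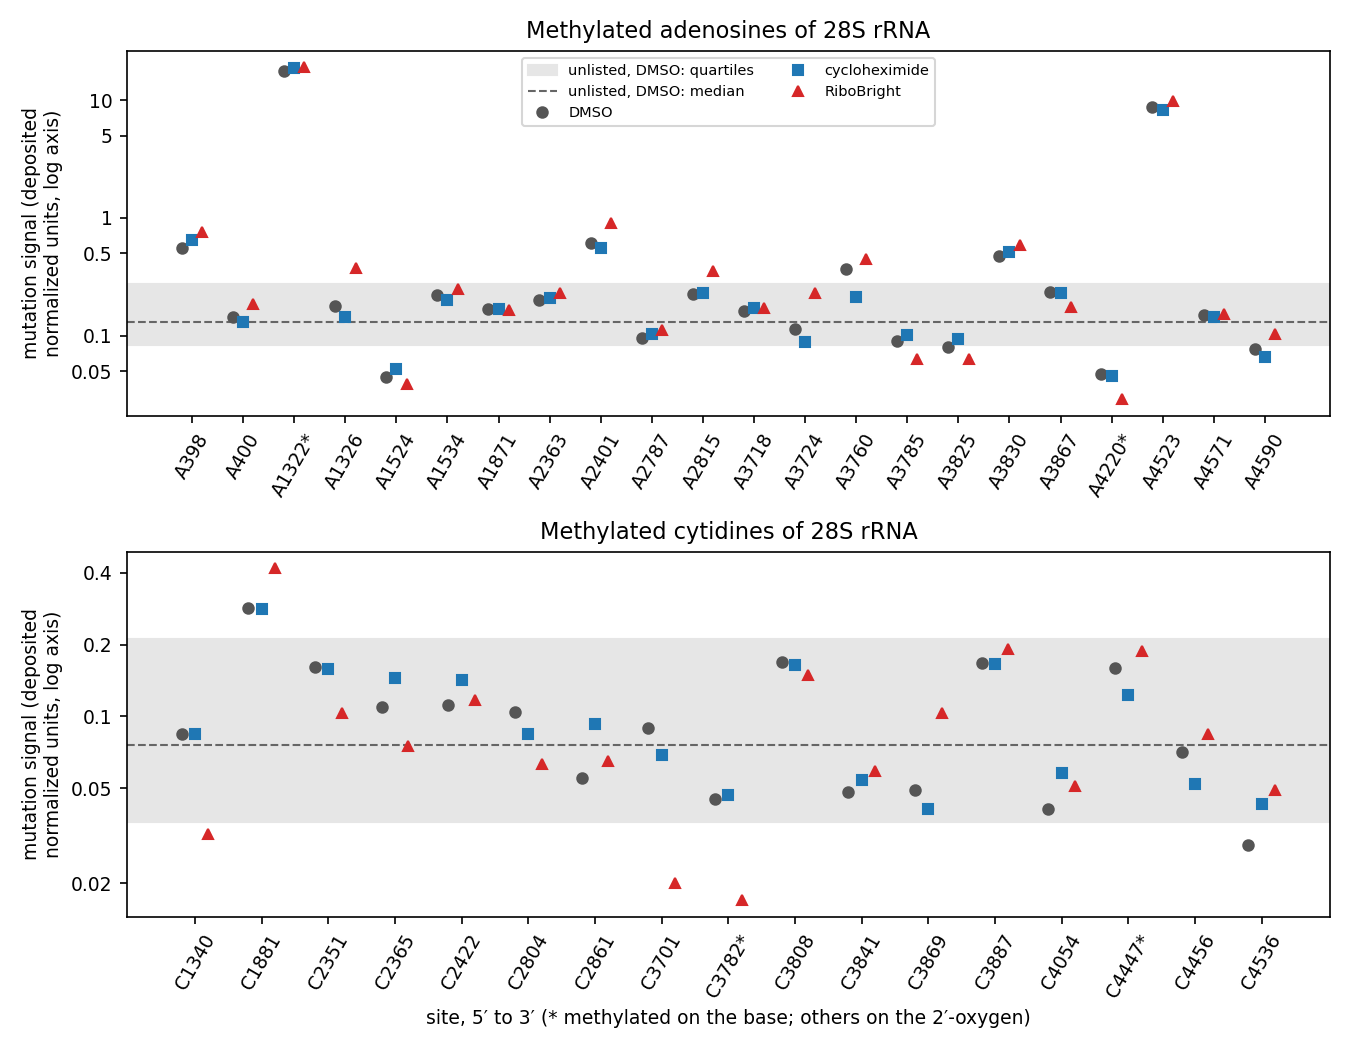
Deposited mutation signal (log axis) of each methylated adenosine (top) and cytidine (bottom) in the DMSO, cycloheximide and RiboBright libraries, 1 point per library; the band and dashed line are the quartiles and median of unlisted positions of that base in DMSO. A1322 and A4523 stand far above the band in all 3 libraries, and C1340, C3701 and C3782 are below it in RiboBright.

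Ribose-methylated adenosines were more often above than below the typical adenosine. In DMSO 14 of the 20 exceeded the median of unlisted A, with 13 in cycloheximide and 15 in RiboBright, while unlisted A split evenly by construction. Their median signal was 0.1745 against 0.131 for unlisted A in DMSO, 0.1705 against 0.139 in cycloheximide and 0.2085 against 0.134 in RiboBright. Their median percentile was 63.0, 59.7 and 65.4 in the same order. Above the unlisted median in every library were 13 of the 20, 5 were below it in every library, and A400 and A3724 changed sides. The sites ranged from percentile 6.15 (A1524) to 99.9 (A4523) in DMSO, so the group spanned nearly the whole range of adenosines.

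A4523 had by far the highest signal of them. It had 8.82 with DMSO, 8.216 with cycloheximide and 9.803 with RiboBright, ranks 3, 4 and 2 among all A and C. This was 67.3, 59.1 and 73.2 times the median of unlisted A. The 4 unlisted A within 10 nt had a median of 0.106, 0.085 and 0.084. The signal of A4523 thus stood alone among nearby A in each library, as that of A1322 did. Here too a signal from probing and one present without dimethyl sulfate cannot be told apart.

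The next highest in DMSO were A2401, A398, A3830 and A3760. A2401 had 0.617 with DMSO, 0.559 with cycloheximide and 0.910 with RiboBright. A398 had 0.556, 0.653 and 0.756, and A3830 had 0.473, 0.511 and 0.592. All 3 stayed above the 75th percentile of adenosines in each library. A3760 had 0.368, 0.215 and 0.446, and was at percentile 68.3 in cycloheximide.

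The lowest in DMSO were A1524, A4590, A3825, A3785 and A2787. A1524 had 0.045 with DMSO, 0.052 with cycloheximide and 0.039 with RiboBright, under the 10th percentile of adenosines throughout. A4590 had 0.077, 0.066 and 0.103, and A3825 had 0.081, 0.094 and 0.063. A3785 had 0.091, 0.101 and 0.063, and A2787 had 0.095, 0.104 and 0.111. These 5 are the sites below the unlisted median in every library. The remaining 10 (A400, A1326, A1534, A1871, A2363, A2815, A3718, A3724, A3867 and A4571) lay between 0.114 and 0.234 in DMSO.

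These middle sites varied between libraries to different degrees. A1871 had 0.169 with DMSO, 0.17 with cycloheximide and 0.167 with RiboBright, and A4571 had 0.15, 0.145 and 0.153. Both kept nearly the same signal in each library. A3867 had 0.234, 0.231 and 0.174, and was lowest in RiboBright. A1534 had 0.224, 0.203 and 0.249, and A400 had 0.144, 0.131 and 0.186. A400 lay close to the unlisted median, at percentiles 54.6, 46.8 and 62.5. A1326, A2815 and A3724 had the largest positive RiboBright to DMSO ratios of the 20, described below with the differences between libraries.

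Ribose-methylated cytidines lay close to the middle of cytidines. In DMSO 9 of the 15 exceeded the median of unlisted C, with 9 in cycloheximide and 7 in RiboBright. Their median signal was 0.089 against 0.076 for unlisted C in DMSO, 0.084 against 0.082 in cycloheximide and 0.075 against 0.079 in RiboBright. Their median percentile was 55.9, 51.3 and 47.7. They were also less spread out than the adenosines: 1 of 15 was above the 75th percentile of its base in each library, and none was above percentile 90 in any library. C1881 was that cytidine, at 0.285 with DMSO, 0.283 with cycloheximide and 0.418 with RiboBright.

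Of the 15, C1881, C2351, C2422, C3808 and C3887 were above the unlisted median in every library. C3808 had 0.169 with DMSO, 0.164 with cycloheximide and 0.149 with RiboBright. C3887 had 0.167, 0.166 and 0.192, and C2351 had 0.161, 0.158 and 0.103. C2422 had 0.112, 0.142 and 0.117. These 5 form the upper end of the group in DMSO as well. C3841, C4054 and C4536 were below the unlisted median in every library. C4536 had the lowest signal of the group in DMSO, with 0.029, then 0.043 in cycloheximide and 0.049 in RiboBright. C4054 had 0.041, 0.058 and 0.051, and C3841 had 0.048, 0.054 and 0.059. The other 7 (C1340, C2365, C2804, C2861, C3701, C3869 and C4456) changed sides between libraries, compared with 2 of the 20 adenosines. The share of unlisted C or A that changed sides was not computed, so these counts do not set the sites apart. C4456 had 0.071, 0.052 and 0.084, and C2804 had 0.104, 0.084 and 0.063. C2861 had 0.055, 0.093 and 0.065. These 3 lay between percentiles 32.8 and 60.7, on either side of the unlisted median.

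**Figure D2:**
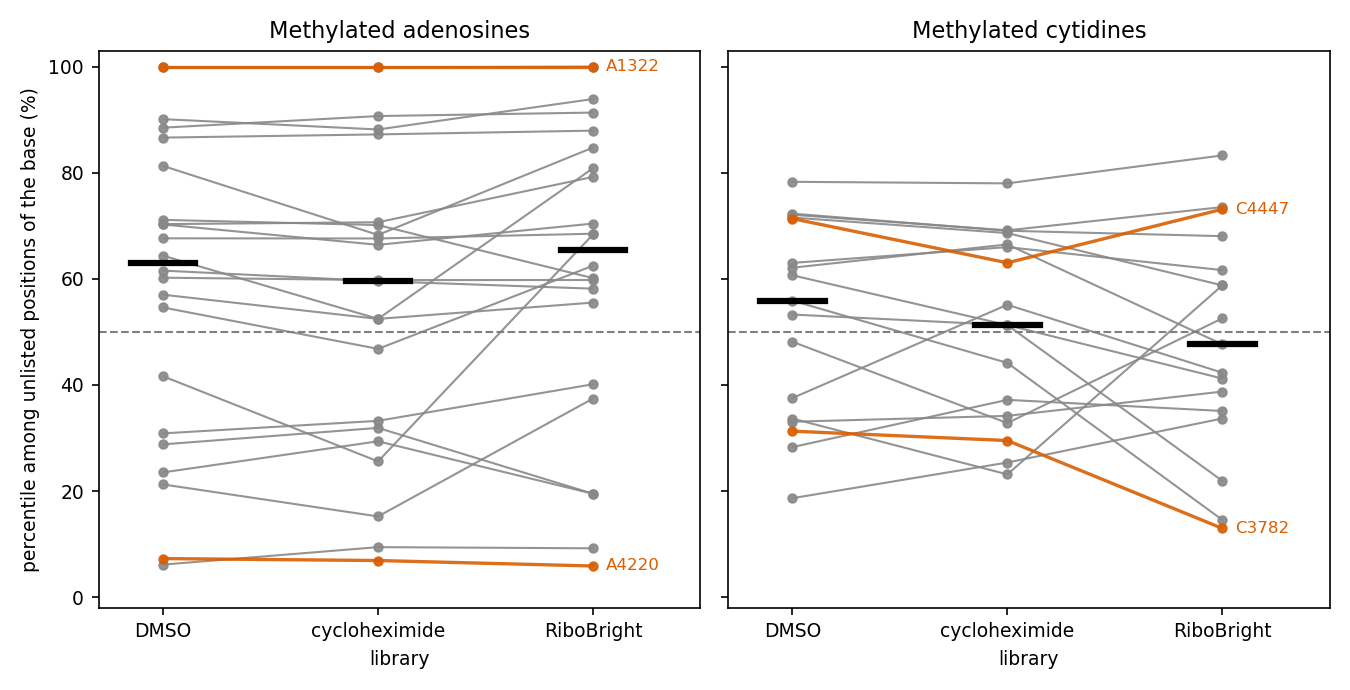
Percentile of each methylated adenosine (left) and cytidine (right) among unlisted positions of its base, in the 3 libraries; each line joins 1 site, black bars are medians of the ribose-methylated sites, orange lines are base-methylated sites, and the dashed line is 50%. The adenosine medians are 63.0, 59.7 and 65.4, and the cytidine medians 55.9, 51.3 and 47.7.

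The adenosines also stood out from adenosines close by. Each site was set against the median of unlisted positions of its own base within 10 nt, where at least 2 had a value. In DMSO 17 of 20 ribose-methylated A were above their neighbours, with 15 in cycloheximide and 14 in RiboBright. Unlisted A, treated the same way, were above theirs at 47.5% of 668 positions in DMSO, 46.8% in cycloheximide and 47.8% in RiboBright. The 3 below in DMSO were A400, A1524 and A4590. A400 and A4590 were below in every library, and A1871, A3785, A3825 and A3867 joined them in RiboBright. With 25 nt on each side 6 of 20 were below in DMSO.

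Cytidines showed no such difference at this distance. In DMSO 5 of 13 ribose-methylated C were above their neighbours, with 4 in cycloheximide and 4 in RiboBright, against 48.2%, 48.8% and 48.3% of unlisted C. With 10 nt on each side 8 of 13 were below in DMSO, 9 in cycloheximide and 9 in RiboBright. With 25 nt on each side 4, 6 and 9 of 15 were below, so the direction turned with the width in DMSO and cycloheximide and stayed in RiboBright.

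Over A and C sites pooled, positions around the ribose-methylated sites had lower median percentiles than the sites. Unlisted A and C within 4 nt of a site numbered 118, and their percentiles within base had a median of 33.1 with DMSO, 29.1 with cycloheximide and 35.9 with RiboBright. Over all unlisted A and C of the stretches that hold sites, the medians were 48.2, 47.3 and 49.6. The lowest median of each library was 2 nt away on the 3′ side, at 16.1, 14.3 and 20.9 over 16 positions, and directly 5′ of the sites the medians were 17.8, 27.9 and 21.8 over 18 positions. The pattern was not smooth: in RiboBright the median 3 nt away on the 3′ side was 51.8, and 5 nt away on the 5′ side it was above 60 in each library. At the sites the medians were 60.7, 55.1 and 58.8 over 35 positions. These medians pool A and C sites, and rest on different positions at each distance. Set against neighbours of the same base site by site, as above, the adenosines were mostly higher and the cytidines were not.

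**Figure D3:**
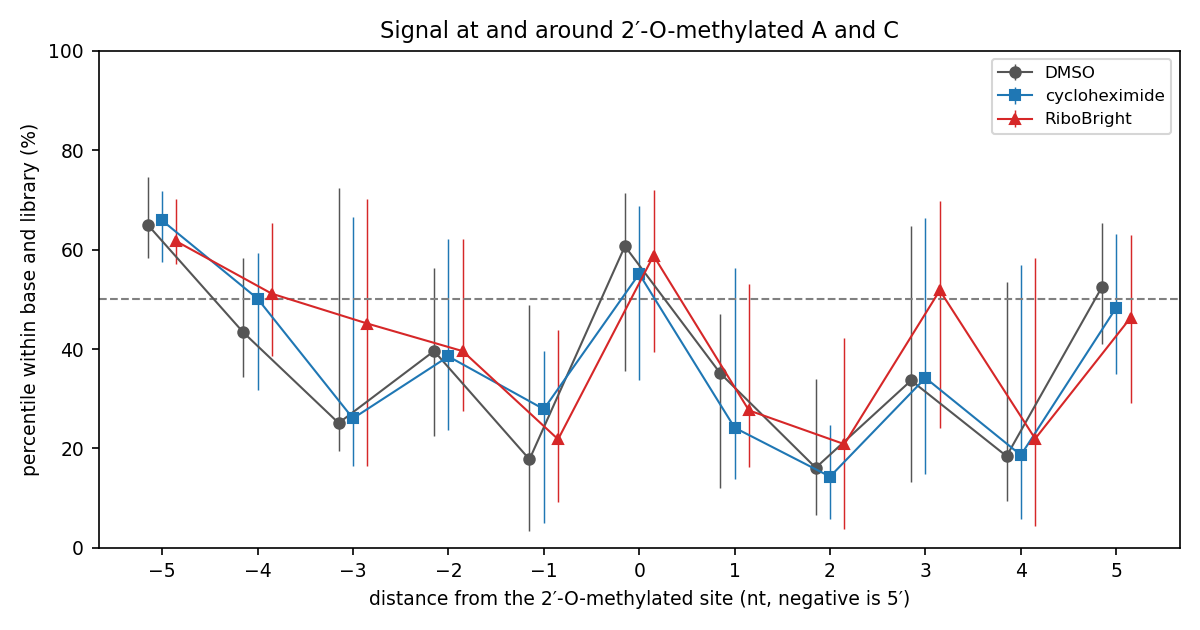
Median percentile within base (points) and quartiles (bars) at the 35 ribose-methylated sites and at unlisted A and C from 5 nt before to 5 nt after them, for each library; the dashed line is 50%, and 13 to 21 positions stand behind each distance other than 0. In each library the median at the sites, 55.1 to 60.7, is above those from 3 nt before to 4 nt after them, and the lowest lies 2 nt after.

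Close pairs of sites were often unequal. There were 10 pairs of consecutive sites within 10 nt. Unlisted pairs at like distances were not compared, so unequal signals do not set the sites apart. The quartiles of unlisted A in DMSO were themselves 0.084 and 0.274. A3830 exceeded A3825, 5 nt away, by 5.84 times with DMSO, 5.44 with cycloheximide and 9.40 with RiboBright. A1534 exceeded A1524 by 4.98, 3.90 and 6.38 times, and A398 exceeded A400, 2 nt away, by 3.86, 4.98 and 4.06 times. These 3 pairs of adenosines kept their order and a wide gap in each library. A3867 and C3869, with 0.234 and 0.049 in DMSO, drew together in RiboBright, with 0.174 and 0.103, while cycloheximide had 0.231 and 0.041. A3718 and A3724 exchanged order in RiboBright. A3718 had 0.162, 0.171 and 0.173, and A3724 had 0.114, 0.088 and 0.231. Of the pair A2363 and C2365, the adenosine had 0.203, 0.21 and 0.232 and the cytidine 0.109, 0.145 and 0.075.

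The sites were not spread evenly along the molecule. Positions 3601 to 4100 held 14 of the 39, which is 5.67% of the A and C there. Positions 436 to 1311 and 2881 to 3600, which hold large expansion segments, and 4601 to 5070 held none. The ribose-methylated sites of 1851 to 2400 were all above the unlisted median of their base in DMSO, 5 of 5, with a median percentile of 67.6. In 3601 to 4100 this was so for 7 of 13, with a median percentile of 55.9. All unlisted A and C had DMSO medians of 55.3 and 42.5 in these stretches. The sites thus exceeded their surroundings in both with DMSO, and the stretches themselves differed in the same direction. In 4101 to 4600, which holds the peptidyl transferase centre, it was so for 2 of 5, from 18.7 (C4536) to 99.9 (A4523). The median percentile there was 48.2 against 49.2 for unlisted A and C. In cycloheximide and RiboBright the site medians were 67.6 and 58.8 in 1851 to 2400. They were 44.2 and 59.8 in 3601 to 4100, and 32.8 and 52.6 in 4101 to 4600. C2365, in 1851 to 2400, was at percentile 47.7 in RiboBright. Medians of unlisted positions by stretch were computed for DMSO only.

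The sequence around the sites differed from that around unlisted positions. G and C made up a median of 52.4% of the 21 nt around ribose-methylated sites, against 71.4% around unlisted A and C. The unlisted set includes positions 436 to 1311 and 2881 to 3600, which hold no sites. Neither this contrast nor those of adjacent bases below were computed within the stretches that hold sites. A cytidine preceded 2 of the 15 ribose-methylated C (13.3%) and 39.9% of unlisted C. Guanosine followed 9 of the 20 ribose-methylated A (45%) and 34.7% of unlisted A. The base on the 3′ side goes with signal among unlisted A, with a DMSO median of 0.1615 before G and 0.106 before A. Set against unlisted A with the same 3′ neighbour, 7 of the 20 adenosines were below the median in DMSO, compared with 6 against all unlisted A.

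For changes between libraries, signals were first put on the DMSO scale with the medians of all nonzero values, and ratios were taken as log2 of scaled signal plus a pseudocount of 0.0104, so they understate changes of low values. A site was called where the ratio reached 2-fold and the higher scaled signal reached the floor of 0.24025, the 75th percentile of DMSO. This is a rule of size and not a test. Both comparisons with DMSO share that library.

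The methylated sites in cycloheximide differed little from those in DMSO. None of the 39 was called, against 1.23% of the 2200 A and C compared, and none of the 7 sites past the floor, against 4.59% of the 588 positions past it. Like the sites, most positions lie over 25 nt from a missing value, and of those unlisted ones 0.125% were called, or 0.522% of those past the floor. A count of 0 among the sites thus does not set them apart from such positions. Within 1.5-fold of DMSO were 37 of 39 sites (94.9%), compared with 87.3% of the same unlisted A and C. The median log2 ratio was -0.08, against -0.01 over unlisted A and C. Of the ribose-methylated A 6 of 20 had a positive ratio, against 43.2% of unlisted A, and this count moved to 10 of 20 without scaling.

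The exceptions to 1.5-fold were A3760 and C2861. A3760 was lower in cycloheximide, at 0.215 against 0.368, with a log2 ratio of -0.82. It was the largest difference among sites past the floor, followed by A2401 at -0.22 and A4523 at -0.18. C3761, directly 3′ of A3760, had 1.902 in DMSO and 1.872 in cycloheximide, so the lower value did not extend to it. C2861 was higher, at 0.093 against 0.055, with a log2 ratio of 0.59 below the floor. At A1322 the ratio was -0.01.

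RiboBright differed more from DMSO, among the sites as elsewhere. It was also the library with the fewest measured unlisted A and C. None of the 39 was called, against 1.41% of the 1838 A and C compared, and none of the 9 sites past the floor, against 5.22% of the 498 positions past it. Of unlisted A and C over 25 nt from a missing value 0.873% were called, or 3.37% of those past the floor, so the count of 0 is near this background. Within 1.5-fold were 29 of 39 sites (74.4%), compared with 69.7% of unlisted A and C away from missing values. The median log2 ratio of the sites was 0.06 and their mean -0.08, against a median of -0.09 over unlisted A and C.

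Ribose-methylated adenosines leaned upward in RiboBright. After scaling 13 of 20 were higher than in DMSO, against 40.6% of unlisted A, and the medians of the log2 ratio were 0.07 and -0.10. All 7 that reached the floor were higher, which is partly set by the floor, since a site can reach it through RiboBright alone. A1326 had the largest ratio, 0.89, from 0.180 in DMSO to 0.376 in RiboBright. A3724 followed at 0.83, below the floor, from 0.114 to 0.231. A2815 had 0.225 and 0.355, a log2 ratio of 0.51, and A2401 a log2 ratio of 0.42. The lowest ratios among ribose-methylated A were -0.58 at A3785, -0.53 at A3867 and -0.43 at A3825. The N6-methylated A4220 had -0.64.

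The cytidines had the largest ratios under RiboBright, at low signals. C3701 had 0.089 with DMSO, 0.069 with cycloheximide and 0.020 with RiboBright, a log2 ratio of RiboBright to DMSO of -1.79. C1340 had 0.084, 0.084 and 0.032, a ratio of -1.25, and C3782 had a ratio of -1.10. These 3 were past 2-fold but far under the floor. Ratios at or below -1 were found at 2 of 15 ribose-methylated C (13.3%) and at 13.5% of unlisted C, so the share was near the background. C3869 was the opposite case, with 0.049 with DMSO, 0.041 with cycloheximide and 0.103 with RiboBright, and a ratio to DMSO of 0.81.

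**Figure D4:**
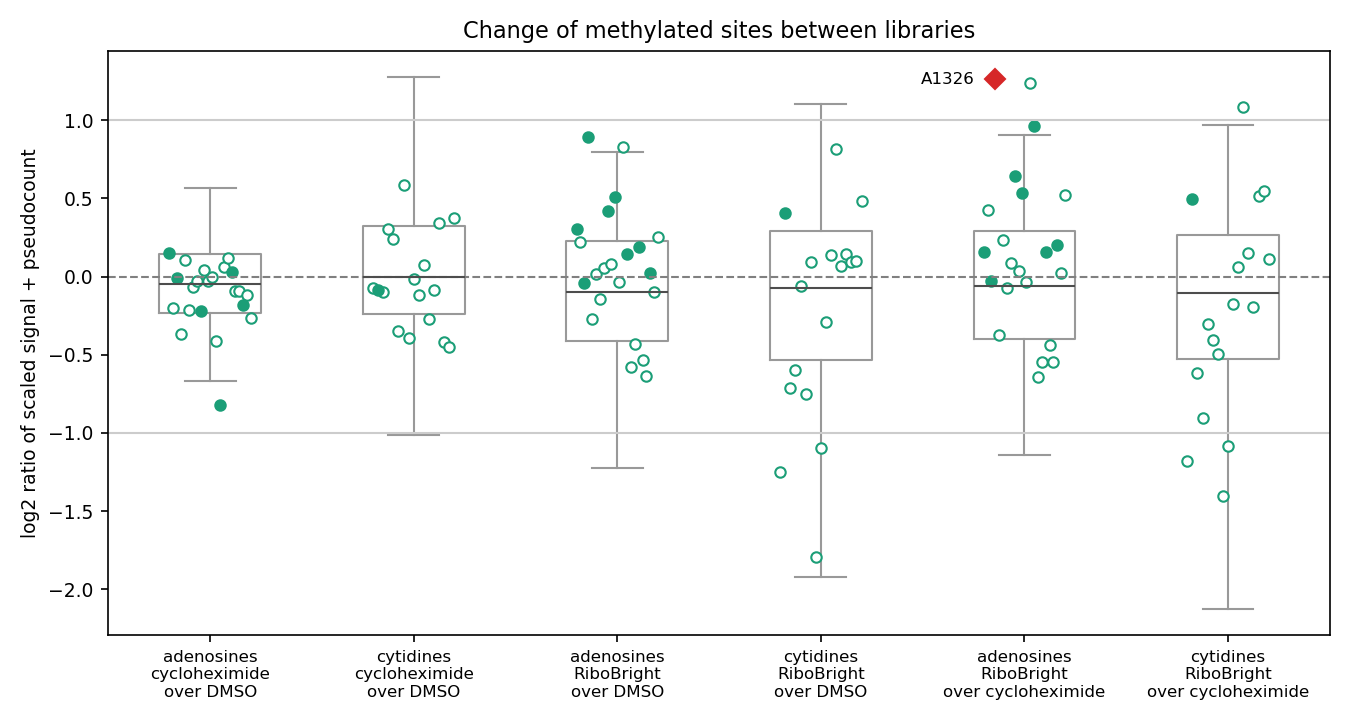
Log2 ratio of scaled signal of each methylated site in the 3 comparisons, adenosines and cytidines apart; filled points are past the signal floor, open points are below it and the diamond is the called site, while boxes give median and quartiles of unlisted positions of the base with whiskers at the 5th and 95th percentiles, and grey lines mark 2-fold. A1326 is called in RiboBright over cycloheximide, and C3701 has the lowest ratio, -1.79.

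Set against each other at the same dose and time, RiboBright and cycloheximide differed at 1 called site. A1326 was higher in RiboBright, at 0.376 against 0.145, with a log2 ratio of 1.26. That is 1 of 39 sites, while 1.52% of the 1838 positions compared were called and 1.03% were called higher. Of the 9 sites past the floor 1 was called, against 5.76% of the 486 positions past it. Of unlisted A and C over 25 nt from a missing value 0.936% were called and 0.624% called higher, or 3.70% called of those past the floor. A count of 1 sets the sites apart from neither background. A3760 was just under the rule at 0.97, from 0.215 in cycloheximide and 0.446 in RiboBright, and was called as well without scaling or with A and C scaled separately. A2401 was next among sites past the floor, at 0.64. A3724 had a ratio of 1.24 and C3869 of 1.09 below the floor.

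A1326 lies 4 nt 3′ of A1322, and the nucleotides between them also varied in RiboBright. A1324 had 0.082 with DMSO, 0.032 with cycloheximide and 0.374 with RiboBright. C1325 had 0.084, 0.067 and 0.135. A1323, at 0 in RiboBright, and C1327, with 0.059, 0.060 and 0.045, did not share the higher values. A1322 itself had a log2 ratio of RiboBright to cycloheximide of -0.03. The number of reads behind these values is unknown.

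Over all 39 sites the order of signals was largely kept. The Spearman correlation with DMSO was 0.965 for cycloheximide and 0.918 for RiboBright, a description over sites that share each library and its normalization. The percentile of a site within its base ranged over a median of 9.26 points between its lowest and highest library. The median range was 7.32 points for ribose-methylated A and 15.0 for ribose-methylated C. The widest range was 42.8 points, at A3724, from 25.6 in cycloheximide to 68.4 in RiboBright. Neither the correlations nor these ranges were computed over unlisted A and C, so they do not set the sites apart.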

How the data were processed

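Human 28S rRNA was probed in HEK293 cells, in 3 libraries. RNA was reverse transcribed with TGIRT-III, per the labels' protocols. The authors deposited a signal per A and C with 3 decimals, and the submitters' processing notes name Bowtie2, cutadapt and hg38. How mutations were counted and normalized, and whether low coverage or background was removed, is not given in the sources used here. Values look scaled within library and base: those ranked 2 to 10% from the top had means between 0.987 and 1.00. Such scaling would hide any shift common to the whole molecule. The library files and the table of the series held identical values.

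Percentiles and counts used the deposited signal without scaling. Factors of 0.945 for cycloheximide and 0.912 for RiboBright scaled ratios to DMSO, and moved all values by -0.08 and -0.13 on the log2 scale. Python 3.11.15, numpy 2.4.6 and pandas 2.3.3 were used. The call rule was run on simulated data with little noise. Changes larger than the rule requires were planted there, at positions past the floor only. That setting gives no estimate of false or missed calls in these libraries. Missing values were treated as not measured. The list of sites came from the literature. The choice to examine it and the call rule were made with earlier results of these data known. Named with full values were base-methylated sites, the 5 highest and 5 lowest ribose-methylated A and C, called sites, the 3 largest ratios past the floor and sites within 10 nt of another. The choice of other named positions followed from their values. The alternatives changed the scaling, pseudocount, floor, fold, reference set and neighbour width.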

Additional observations from a re-analysis of the deposited data

How the results depend on the processing

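Under each of the 6 other reference sets, the counts against unlisted positions of the same base stayed within 1.5 times. The median percentiles stayed within the binomial interval of the median. That interval takes the 20 A or 15 C sites as independent and is wide, so staying within it is a weak check. Ribose-methylated A below the median numbered 5 to 8. The median percentile of ribose-methylated C in cycloheximide was 48.7 in place of 51.3 with exact 0 as not measured. In RiboBright it was 53.2 in place of 47.7 against unlisted C with the same 3′ neighbour, with 6 in place of 8 of the 15 below the median. With 5 nt on each side 2 of 16 ribose-methylated A in cycloheximide and 5 of 10 C in DMSO were below their neighbours. With 25 nt this was so for 6 of 20 A and 4 of 15 C in DMSO. The totals differ because the number of sites with at least 2 measured neighbours changes with the width. With scaling by the 90th percentile the median log2 ratio of cycloheximide to DMSO was -0.0015, and 10 ribose-methylated A were higher in cycloheximide, as without scaling. The median of RiboBright to DMSO was 0.18 without scaling and 0.31 past the floor, and that of RiboBright to cycloheximide 0.49 past the floor. A site can reach the floor through RiboBright alone, so the medians past the floor are partly set by the floor. Over unlisted A and C past the floor the medians were -0.05 to DMSO and 0.01 to cycloheximide. At 1.5-fold, called sites numbered 1 for cycloheximide (A3760), 1 for RiboBright (A1326) and 3 between the compounds (A1326, A2401 and A3760). That is 2.56%, 2.56% and 7.69% of the sites, against 2.95%, 4.90% and 4.79% of all positions compared. Without scaling called sites numbered 1 for RiboBright (A1326, 2.01% of all positions) and 2 between the compounds (1.80%). With A and C scaled separately they numbered 2 between the compounds (1.80%). Without a floor 3 were called for RiboBright (15.5% of all positions) and 6 between the compounds (15.0%). With the floor at the DMSO median 2 were called between the compounds (5.01% of all positions). With the floor at the 90th percentile or at 3-fold 0 were called, against at most 0.490% of all positions in any comparison. No replicate exists, so none could be left out. The read depth is unknown, so noise at low signals has no estimate. Comparisons with the same 3′ neighbour or within stretches that hold sites were added once the data had been seen. The cause of these shifts was not tested. No paired analysis was possible because each treatment has 1 library.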

Other observations

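Among the 50 highest A and C of DMSO, 2 were methylated sites (A1322 and A4523) and 4 were unlisted positions within 10 nt of one, all chosen after their values were seen. The molecule holds 39 sites among 2492 A and C. The share of all unlisted A and C within 10 nt of a site was not computed. The count of 4 therefore cannot be read as an excess or a lack near sites. C3788, 6 nt 3′ of C3782 and 3 nt 3′ of A3785, had 5.055 with DMSO, 4.54 with cycloheximide and 5.605 with RiboBright. C3812, 4 nt 3′ of C3808, had 3.039, 2.794 and 3.337. C3761, next to A3760, had 1.902, 1.872 and 1.892, and A3861, 6 nt 5′ of A3867, had 1.71, 1.437 and 1.453. All 4 lie between positions 3601 and 4100, where the methylated sites are densest, and their log2 ratios to DMSO were between -0.36 and 0.02 under both compounds.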
